A study of Homo sapiens with 40 samples.

Results

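The genes described here are 10 receptor tyrosine kinases with a place in lung cancer: EGFR, ERBB2, ERBB3, MET, AXL, FGFR1, FGFR2, FGFR3, IGF1R and EPHA2. They were picked by name, and each symbol matched a single gene among the 19280 genes with values in the authors' deposited table. The table compares GSK3368712, which blocks the type I enzymes that methylate arginines of proteins, with the vehicle dimethyl sulfoxide (DMSO) in 10 established human lines of non-small cell lung cancer. There were 40 RNA sequencing libraries, 2 per arm of each line. Row labels assign EBC1, LK2, NCIH226, NCIH520, SKMES1 and SW900 to lung squamous cell carcinoma (LUSC), and NCIH1563, NCIH1975, NCIH522 and PC9 to lung adenocarcinoma (LUAD). Within a line the groups differ in the agent (DMSO or GSK712, the label for GSK3368712), while the lines differ from each other in origin and genotype, and no engineered change is named for any of them. The sample titles also carry the code D5, which is not spelled out, and no dose or time is stated in words.

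Receptor tyrosine kinases span the plasma membrane, bind a growth factor or a cell-bound ligand outside and phosphorylate tyrosines inside. Adaptors then dock and pass the signal to the RAS-MAPK and PI3K-AKT pathways. In lung carcinoma, mutation, amplification or high expression of these receptors can drive growth, and EGFR and MET are targets of approved drugs. PC9 and NCIH1975 are known to carry activating EGFR mutations, EBC1 a MET amplification and NCIH520 an FGFR1 amplification.

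Depth per library was not analysed here, and the mean normalized counts summed over listed genes were 57647556 to 108557964 per line. Each line had 12721 to 14565 genes with values. The median standard error over all genes was 0.108 to 0.216 (log2) in 7 lines and 0.264, 0.302 and 0.342 in NCIH522, PC9 and NCIH1975, where small changes are therefore less detectable. The epithelial keratins KRT8, KRT18 and KRT19 were listed in 10 lines, EPCAM in 8 and CDH1 in 7. Lineage markers did not follow the labels: TP63, a squamous factor, was listed in 2 LUSC and 2 LUAD lines, and NKX2-1, a factor of lung adenocarcinoma, in 3 LUSC lines and 1 LUAD line, with KRT14 and DSG3 listed in none. The leukocyte genes PTPRC and CD3E and the endothelial genes VWF and TIE1 were listed in no line, while COL1A1, a collagen gene of fibroblasts, was listed in all 10.

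Promoter sequences are shown for EGFR and MET, the pair of members whose changes had the highest correlation over lines. They are also shown for EGFR and FGFR3 as the members with the lowest and the highest mean change over lines. Each run is the RefSeq window of 300 bases on GRCh38.p14, from 250 bases before the start of transcription, read 5′ to 3′ on the plus strand. The windows are chr7:55018767-55019066 for EGFR, chr7:116671946-116672245 for MET and chr4:1793043-1793342 for FGFR3. RefSeq holds a second EGFR window, chr7:55109589-55109888, with a GC content of 42.0% and 0 matches to either motif below; the data used here do not tell which start was used. Capitals mark GGGCGG, the GC box, and TCCTCC, a pyrimidine-rich repeat, on either strand.
EGFR: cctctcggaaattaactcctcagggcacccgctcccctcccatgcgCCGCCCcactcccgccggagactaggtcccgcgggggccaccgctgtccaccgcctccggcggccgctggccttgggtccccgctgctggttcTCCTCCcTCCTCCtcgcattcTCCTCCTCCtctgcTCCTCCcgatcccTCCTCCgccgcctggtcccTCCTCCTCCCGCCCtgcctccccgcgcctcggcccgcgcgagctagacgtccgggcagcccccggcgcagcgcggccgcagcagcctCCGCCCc
MET: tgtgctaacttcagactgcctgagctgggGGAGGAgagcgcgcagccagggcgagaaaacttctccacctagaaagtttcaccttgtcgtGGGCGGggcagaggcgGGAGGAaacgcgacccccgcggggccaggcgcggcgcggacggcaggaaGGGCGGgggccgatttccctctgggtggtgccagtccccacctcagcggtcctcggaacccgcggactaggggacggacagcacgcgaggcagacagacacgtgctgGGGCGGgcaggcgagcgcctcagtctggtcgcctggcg
FGFR3: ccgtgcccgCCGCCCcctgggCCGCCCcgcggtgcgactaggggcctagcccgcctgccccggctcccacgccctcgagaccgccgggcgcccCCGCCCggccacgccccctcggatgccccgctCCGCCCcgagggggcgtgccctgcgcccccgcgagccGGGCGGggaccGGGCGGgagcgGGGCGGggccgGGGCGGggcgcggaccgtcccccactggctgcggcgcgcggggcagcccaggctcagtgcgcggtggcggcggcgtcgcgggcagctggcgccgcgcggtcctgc
TCCTCC occurred 8 times in the EGFR window, a number reached by 0.202% of the 35116 promoters of that length, 2 times in MET and 0 times in FGFR3. GGGCGG occurred 3 times in EGFR, 3 times in MET and 8 times in FGFR3, the last a number reached by 0.812% of promoters. Overlapping matches were counted separately, and in the EGFR window a TCCTCC match shares its last base with a GC box on the other strand. Over all promoters, 45.0% held GGGCGG and 36.6% held TCCTCC. GC content was 75.3% in EGFR, 69.3% in MET and 86.3% in FGFR3, against a median of 58.7%. These matches describe letters only.

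Values were given in the authors' deposited table for 82 of the 100 pairs of gene and line. The other 18 were left without values, and the labels state a cutoff at an FPKM of 1 in each comparison. FGFR2 was listed in 2 lines, EGFR, ERBB3, AXL and FGFR3 in 8, MET and IGF1R in 9, and ERBB2, FGFR1 and EPHA2 in 10. At the authors' DESeq2 adjusted p of 0.05, 16 of the 82 values were higher and 16 lower with GSK3368712. These 32 are 39.0% of the values, against 27.4% of all pairs of gene and line (13.7% higher and 13.8% lower). In LUSC lines 26 of 49 values (53.1%) were called, against 34.6% of all values there, and in LUAD lines 6 of 33 (18.2%), against 15.8%. In the 7 lines with the smaller standard errors the share was 56.1%, against 36.5% of all values there. All 32 calls fell in those 7 lines, while the 25 values in NCIH1975, NCIH522 and PC9 held 0 calls, against 4.69% of all values there. The authors' mark, which adds a minimum change of 2-fold in either direction, was set for 8 of the 82 values, or 9.76%, against 6.02% of all values.

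**Figure D1:**
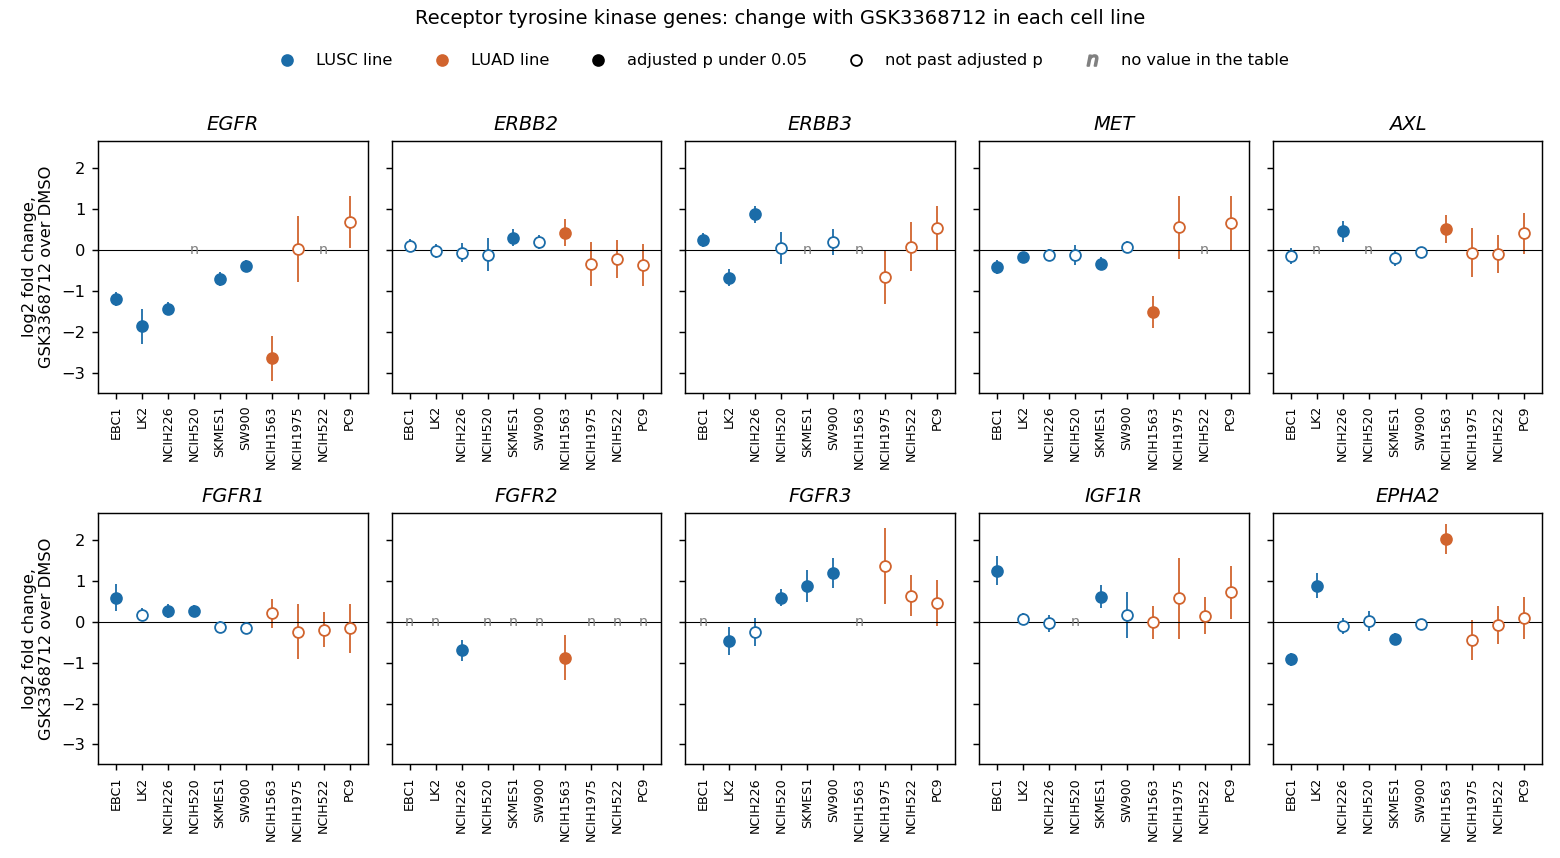
Log2 fold change of each receptor gene (vertical axis, log2 units) in each cell line (horizontal axis), with bars for the 95% normal interval from the authors' standard errors. Filled points pass the authors' adjusted p of 0.05, blue is LUSC, orange is LUAD, and n marks a line without a value. EGFR is below 0 in 6 of 8 lines, down to −2.65 in NCIH1563, and FGFR3 is above 0 in 6 of 8.

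The number of receptors called differed by line. In EBC1, 3 of the 8 listed receptors were higher and 3 lower in the authors' deposited table, where 46.4% of all genes were called, 23% higher and 23.4% lower. NCIH1563 also had 3 higher and 3 lower of 8 (48.1% of all genes called, 23.3% higher and 24.8% lower). SKMES1 had the same numbers of 8 on a smaller background (31.4%, 15.8% and 15.6%). LK2 had 1 higher and 4 lower of 8 (39.3%, 19.9% and 19.5%), and NCIH226 had 3 higher and 2 lower of 10 (31.2%, 15.4% and 15.8%). NCIH520 had 2 higher and 0 lower of 6 (23.8%, 11.4% and 12.3%), and SW900 had 1 of each among 9 (35.7%, 18% and 17.7%). NCIH1975 had 0 of 9 (7.91%, 4.33% and 3.58%), PC9 had 0 of 9 (4.47%, 2.56% and 1.91%) and NCIH522 had 0 of 7 (1.66%, 0.912% and 0.75%). The receptors' share thus lay above that of all genes in 6 of the 10 lines and below it in SW900, NCIH1975, PC9 and NCIH522. In the 7 lines with the smaller standard errors, the median over receptor values was 0.107, against 0.108 to 0.216 by line over all genes. Whether the shares depend on the standard errors or levels of the receptors was not tested.

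EGFR, the receptor for EGF and TGFA (ENSG00000146648, GRCh38 chromosome 7, 55019021 to 55211628), fell in 6 of the 8 lines that list it. The authors' deposited table gives log2 fold changes of −1.20 in EBC1, −1.87 in LK2, −1.43 in NCIH226, −0.72 in SKMES1 and −0.38 in SW900, all LUSC lines. For the LUAD lines, the authors' deposited table gives −2.65 in NCIH1563, 0.02 in NCIH1975 and 0.69 in PC9. So the 5 LUSC lines and NCIH1563 lay below 0, and the lines with known EGFR mutations lay at or above it. Those lines, NCIH1975 and PC9, also had the largest median standard errors over all genes (0.342 and 0.302). Only 7.91% and 4.47% of all genes were called in them. NCIH522, which also had few calls (1.66%), has no EGFR value. EGFR mutation and these other differences between lines therefore cannot be told apart here. The authors' DESeq2 adjusted p in the authors' deposited table ran from 2.90e-63 in NCIH226 to 3.28e-06 in SW900 for the 6 falls. In NCIH1563 the fold change is a 6.28-fold lower level, with a 95% interval of −3.21 to −2.10 on the log2 scale, and in SW900 a 1.30-fold lower one. In bulk RNA, less transcript per cell and fewer cells that express the gene cannot be told apart. EGFR had the third lowest test statistic, rank 3 of 13112 genes, in NCIH226, and rank 29 of 13968 in EBC1.

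In NCIH1975 the 95% interval was −0.79 to 0.83 and in PC9 0.05 to 1.33 (adjusted p = 0.988 and 0.226, from the authors' deposited table). Both intervals lie above those of EBC1 (−1.38 to −1.03), LK2 (−2.30 to −1.44) and NCIH226 (−1.60 to −1.27). The interval of NCIH1975 overlaps those of SKMES1 (−0.89 to −0.54) and SW900 (−0.53 to −0.24). The mutant and the other lines were not tested as groups. A call of lower in at least 6 lines was reached by 3.47% of the 13641 genes with values in at least 5 lines.

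ERBB2, which binds no known ligand and pairs with the other ERBB receptors, changed little. In the authors' deposited table its log2 fold changes were 0.10 in EBC1, −0.02 in LK2, −0.06 in NCIH226, −0.12 in NCIH520, 0.30 in SKMES1 and 0.20 in SW900. Its LUAD values in the authors' deposited table were 0.42 in NCIH1563, −0.35 in NCIH1975, −0.21 in NCIH522 and −0.36 in PC9. Only the rises in NCIH1563 and SKMES1 passed the authors' DESeq2 adjusted p in the authors' deposited table (0.0251 and 0.0159). Standard errors ran from 0.080 to 0.276. Rises called in at least 2 lines were reached by 30.2% of genes with values in at least 5 lines. ERBB2 exons overlap those of PGAP3 and MIEN1 on the opposite strand, and whether counting used strand is not stated.

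ERBB3, a receptor for neuregulins with a weak kinase, went both ways. The authors' deposited table lists 0.24 in EBC1, −0.67 in LK2, 0.88 in NCIH226, 0.05 in NCIH520, 0.20 in SW900, −0.66 in NCIH1975, 0.08 in NCIH522 and 0.55 in PC9. It rose in NCIH226 and EBC1 and fell in LK2, by the authors' DESeq2 adjusted p in the authors' deposited table (6.88e-15, 0.0169 and 2.77e-08). NCIH226 and LK2 therefore had opposite calls, and in NCIH226 this was the reverse of EGFR in the same line. ERBB3 shares 31 exonic bases with another annotated gene on its own strand.

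MET, the receptor for hepatocyte growth factor (chromosome 7, 116672390 to 116798386), fell in 4 of 9 lines. Its log2 fold changes in the authors' deposited table were −0.41 in EBC1, −0.18 in LK2, −0.13 in NCIH226, −0.12 in NCIH520, −0.34 in SKMES1 and 0.08 in SW900. In the LUAD lines the authors' deposited table has −1.52 in NCIH1563, 0.55 in NCIH1975 and 0.66 in PC9. The falls in NCIH1563, EBC1, SKMES1 and LK2 passed the authors' DESeq2 adjusted p in the authors' deposited table (2.47e-12, 5.00e-06, 0.000114 and 0.0150). Over all pairs of gene and line, 13.8% were called lower. NCIH1563 stood apart with a 2.87-fold lower level, while the LUSC lines lay between −0.41 and 0.08. Standard errors of MET ran from 0.065 to 0.395, and the values above 0 in NCIH1975 and PC9 did not pass (adjusted p = 0.479 and 0.259 in the authors' deposited table). In EBC1, the line with amplified MET, the level with GSK3368712 was 75.1% of that with DMSO.

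AXL, the receptor for GAS6, rose in 2 of 8 lines, with authors' DESeq2 adjusted p of 0.00278 in NCIH226 and 0.0108 in NCIH1563 in the authors' deposited table. Its values in the authors' deposited table were −0.15 in EBC1, 0.45 in NCIH226, −0.20 in SKMES1, −0.05 in SW900, 0.50 in NCIH1563, −0.07 in NCIH1975, −0.10 in NCIH522 and 0.41 in PC9. All 8 lay within a range of 0.70 log2 units, the narrowest among the members listed in at least 8 lines. Of genes with values in at least 5 lines, 30.2% were likewise called higher in at least 2 lines.

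The fibroblast growth factor receptors differed from each other. FGFR1 stood at 0.59 in EBC1, 0.17 in LK2, 0.26 in NCIH226, 0.26 in NCIH520, −0.14 in SKMES1 and −0.16 in SW900 in the authors' deposited table. For NCIH1563, NCIH1975, NCIH522 and PC9 the authors' deposited table gives 0.20, −0.25, −0.19 and −0.16 for FGFR1. Its rises in EBC1, NCIH226 and NCIH520 passed the authors' DESeq2 adjusted p in the authors' deposited table (0.00223, 0.0125 and 0.00458). Rises called in at least 3 lines were reached by 17.6% of genes with values in at least 5 lines. In NCIH520, the line with amplified FGFR1, the rise was 1.20-fold. FGFR2 had values in NCIH226 (−0.70) and NCIH1563 (−0.88) only and fell in both by the authors' DESeq2 adjusted p in the authors' deposited table (1.27e-06 and 0.00583).

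FGFR3 (chromosome 4, 1793293 to 1808872) lay above 0 in 6 of 8 lines. The authors' deposited table gives −0.47 in LK2, −0.26 in NCIH226, 0.59 in NCIH520, 0.87 in SKMES1, 1.19 in SW900, 1.35 in NCIH1975, 0.63 in NCIH522 and 0.46 in PC9. It rose in SW900, NCIH520 and SKMES1 and fell in LK2, by the authors' DESeq2 adjusted p in the authors' deposited table (3.50e-09, 2.58e-06, 0.000140 and 0.0222). The rise in SW900 was 2.28-fold. The value in NCIH1975 had a standard error of 0.474 and just missed that threshold in the authors' deposited table (adjusted p = 0.0535). A call of higher in at least 3 lines was common, at 17.6% of genes with values in at least 5 lines. In SKMES1 and SW900, EGFR fell while FGFR3 rose.

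IGF1R, the receptor for insulin-like growth factors (chromosome 15, 98648539 to 98964530), rose in 2 of 9 lines. Its values in the authors' deposited table were 1.25 in EBC1, 0.07 in LK2, −0.04 in NCIH226, 0.61 in SKMES1, 0.16 in SW900, −0.02 in NCIH1563, 0.57 in NCIH1975, 0.15 in NCIH522 and 0.72 in PC9. EBC1, at a 2.37-fold rise, and SKMES1 passed the authors' DESeq2 adjusted p in the authors' deposited table (6.87e-11 and 0.000160). The 2 values below 0, in NCIH226 and NCIH1563, were not called, and the standard errors ran from 0.077 to 0.504. A call of higher in at least 2 lines was reached by 30.2% of genes with values in at least 5 lines.

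EPHA2, a receptor for ephrin-A ligands (chromosome 1, 16124337 to 16156087), had the widest spread after EGFR. The authors' deposited table lists −0.92 in EBC1, 0.88 in LK2, −0.10 in NCIH226, 0.01 in NCIH520, −0.42 in SKMES1 and −0.07 in SW900. In LUAD lines the authors' deposited table lists 2.01 in NCIH1563, −0.45 in NCIH1975, −0.09 in NCIH522 and 0.09 in PC9. It rose in NCIH1563 (4.03-fold) and LK2 and fell in EBC1 and SKMES1, with authors' DESeq2 adjusted p of 2.64e-24, 7.07e-08, 1.17e-26 and 2.74e-08 in the authors' deposited table. In both lines where EPHA2 rose, EGFR and MET fell. In EBC1 and SKMES1 all 3 fell.

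The next comparison took the line as the replicate and asked whether a receptor changed on average, with limma fitted to all genes. Across the 3 receptors listed in all 10 lines, the mean log2 fold change was −0.01 ± 0.26 for ERBB2, 0.06 ± 0.28 for FGFR1 and 0.09 ± 0.82 for EPHA2 (SD, n = 10, limma adjusted p = 0.954, 0.686 and 0.805). Of these, 0 of 3 passed, against 21.6% of the 9339 genes tested. At an unadjusted p under 0.05 there were also 0 of 3, against 34.6% of genes, and by a random-effects meta-analysis 0 of 3, against 40.2%. With missing lines allowed and at least 5 values, 0 of 9 receptors passed limma, with 3 at an unadjusted p under 0.05 and 2 by the random-effects meta-analysis. The background was 19.5% of 13641 genes by limma (9.31% higher and 10.2% lower), 33.7% at an unadjusted p under 0.05 and 37.0% by the meta-analysis.

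EGFR had the mean farthest from 0, at −0.94 ± 1.07 (SD, n = 8 lines, NCIH520 and NCIH522 missing; limma adjusted p = 0.0649). The meta-analysis, which weights lines by the authors' standard errors, gave −0.98 ± 0.23 (SE) for EGFR with an adjusted p of 0.000161. Without PC9, which had the highest value, the limma mean of EGFR was −1.18 (adjusted p = 0.0228), and without NCIH1975, NCIH522 and PC9 it was −1.38 (adjusted p = 0.0157). Without any other single line limma's adjusted p for EGFR ran from 0.0571 (NCIH1975) to 0.139 (LK2), and an ordinary one-sample test gave an adjusted p of 0.14. FGFR3 stood at 0.54 ± 0.64 (n = 8, EBC1 and NCIH1563 missing; limma adjusted p = 0.0813), or 0.69 without LK2 (adjusted p = 0.0298) and 0.66 without NCIH226 (adjusted p = 0.0493), the lines with values below 0. Without any other single line limma's adjusted p for FGFR3 ran from 0.0661 (NCIH1563) to 0.172 (SW900), and without NCIH1975, NCIH522 and PC9 the mean was 0.38 (adjusted p = 0.344). IGF1R stood at 0.38 ± 0.43 (n = 9, NCIH520 missing; limma adjusted p = 0.0661), or 0.44 without NCIH1563 (adjusted p = 0.0419), and the meta-analysis gave 0.36 ± 0.15 (SE, adjusted p = 0.0449). Without any other single line limma's adjusted p for IGF1R ran from 0.0598 (NCIH226) to 0.131 (SKMES1), and without NCIH1975, NCIH522 and PC9 the mean was 0.34 (adjusted p = 0.231). MET stood at −0.16 ± 0.63 (limma adjusted p = 0.599) and at 0.01 without NCIH1563. ERBB3 at 0.08 ± 0.54 and AXL at 0.10 ± 0.30 were nearer to 0 (limma adjusted p = 0.777 and 0.545).

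**Figure D2:**
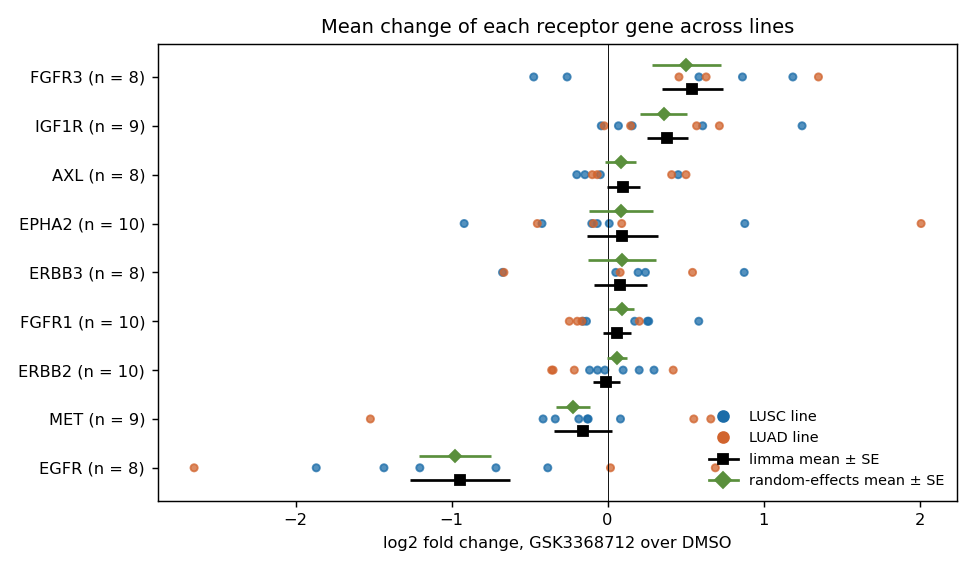
Log2 fold changes of 9 receptor genes by line (points, blue LUSC and orange LUAD), with the limma mean (black square) and the random-effects mean (green diamond), each with its SE, on a horizontal axis in log2 units. EGFR has the lowest mean, −0.94, and the widest scatter, while ERBB2, FGFR1 and AXL stay within 0.83 log2 units from lowest to highest line.

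Differences between lines exceeded the authors' standard errors for all 9 receptors tested by Cochran's Q, against 64.4% of all genes. Q was largest for EPHA2 (283 on 9 degrees of freedom, adjusted p = 1.72e-53) and EGFR (190 on 7, adjusted p = 1.12e-35). It was smallest for ERBB2 (21.0 on 9, adjusted p = 0.0218), whose call was lost without SKMES1 or without NCIH1563 (adjusted p = 0.0592 and 0.0625). The SD of the fold changes over lines was 1.07 for EGFR, higher than in 97.6% of genes, and 0.82 for EPHA2, at the 94.3rd percentile. ERBB2 and FGFR1 lay at the 32.1st and 35.0th percentiles, so the receptors ranged from more to less variable than most genes.

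LUAD and LUSC lines were compared by limma, with 1 value per line. The difference, LUAD minus LUSC, was 0.47 ± 0.67 (SE) for EGFR, from means of −0.65 in 3 LUAD lines and −1.12 in 5 LUSC lines. It was 0.49 ± 0.45 for EPHA2, 0.43 ± 0.40 for FGFR3 and −0.26 ± 0.17 for FGFR1. Limma's adjusted p lay between 0.887 and 0.997 for the 9 receptors, in a fit where 0.0167% of 11948 genes passed. These errors leave room for sizeable differences in either direction, and single lines moved the values: FGFR3 stood at 0.16 without NCIH1975 and 0.22 without LK2, EPHA2 at −0.047 without NCIH1563, and EGFR at −0.20 without PC9 and 1.48 without NCIH1563.

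The fold changes of some of the 36 pairs of receptors were correlated over lines. Over the 8 lines with both, Pearson's r between the fold changes of EGFR and MET was 0.89, and it was 0.83 without NCIH1563. The high end was NCIH1975 and PC9, where neither gene was called and the standard errors of MET were 0.395 and 0.333. The LUSC lines were not in the same order: LK2 and NCIH226 were lowest for EGFR (−1.87 and −1.43), and EBC1 and SKMES1 for MET (−0.41 and −0.34). Among the 9649 other genes with values in these 8 lines, MET ranked 215 by its r with EGFR. ERBB2 ran opposite to MET (r = −0.84 over 9 lines, −0.80 without NCIH1563) and to EGFR (r = −0.67 over 8 lines, −0.50 without NCIH1563). The r between EGFR and EPHA2 was −0.63 over 8 lines but −0.24 over the 7 without NCIH1563, so it rested largely on that line. Other pairs with r near 0.7 were ERBB3 and AXL (0.72 over 6 lines), AXL and EPHA2 (0.69 over 8) and EGFR and FGFR3 (0.69 over 6). FGFR3 ran opposite to AXL (r = −0.77 over 6 lines) and to EPHA2 and FGFR1 (both r = −0.74 over 8 lines). The paired values come from the same libraries and the same normalization, and r is given as a description.

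**Figure D3:**
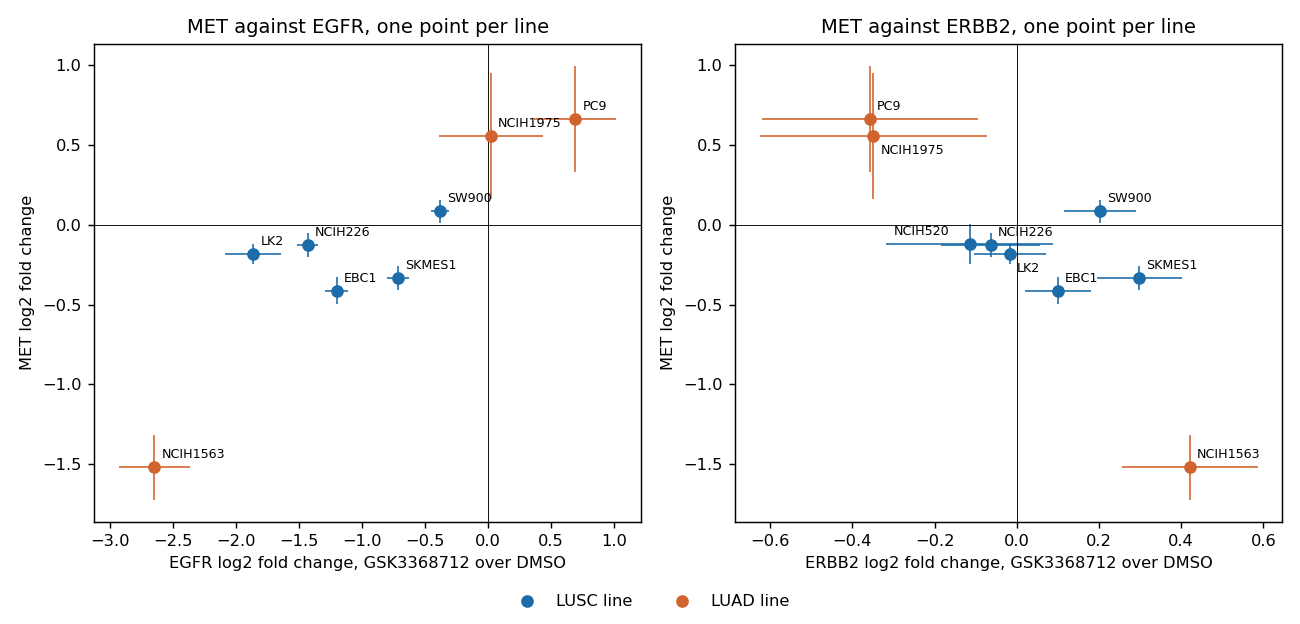
Log2 fold change of MET (vertical axis) against that of EGFR (left) and ERBB2 (right), 1 point per line with bars for the authors' SE, blue LUSC and orange LUAD. NCIH1563 lies lowest for MET at −1.52 in both panels, and PC9 and NCIH1975 lie highest for MET at 0.66 and 0.55.

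By the same measure over all 10 lines, the genes most like EPHA2 among 9055 were EMG1 and JMJD4 (both r = 0.98). Those most like ERBB2 were MVB12A and ZNF92 (r = 0.93 and 0.93), and those most like FGFR1 were FCHSD1 and MINCR (both r = 0.90). EMG1 ran from −0.37 in EBC1 to 1.13 in NCIH1563, the same ends as EPHA2, in the authors' deposited table.

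Levels were compared as CPM per kilobase, which is a gene's mean normalized count scaled to a common total in each line (CPM) and divided by its longest transcript in GENCODE 29. Each is a mean over both arms, lines were normalized separately, and no spread over libraries is available, so neighbours in an order cannot be told apart by error. MET was the receptor with the highest level in EBC1 (770), NCIH226 (110), SKMES1 (82.1) and SW900 (107). FGFR1 was highest in LK2 (104) and NCIH520 (187), ERBB2 in NCIH1563 (60.6), NCIH1975 (34.7) and NCIH522 (75.9), and AXL in PC9 (73.0). With the median transcript length in place of the longest, FGFR1 led in NCIH522 and ERBB3 in PC9. In single genes, the level of MET spanned 198-fold from NCIH520 (3.88) to EBC1, that of FGFR1 144-fold from PC9 (1.29) to NCIH520, and that of EGFR 86.2-fold from LK2 (0.601) to SKMES1 (51.8). Among the 8 lines that list it, EGFR therefore fell both where its level was lowest (LK2) and where it was highest (SKMES1). In LK2 its level was near the bottom of the listed genes (percentile 4.21). These spans leave out lines without a value, NCIH522 for MET and NCIH520 and NCIH522 for EGFR, where levels may be lower still.

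Over the lines that list each gene, the other levels varied less. ERBB2 ran from 1.23 in NCIH520 to 75.9 in NCIH522, ERBB3 from 1.11 in NCIH520 to 27.97 in PC9, and EPHA2 from 3.15 in LK2 to 79.7 in SKMES1, in CPM per kilobase. On this scale AXL ran from 6.30 in NCIH522 to 82.1 in SW900, IGF1R from 1.86 in EBC1 to 16.9 in NCIH226, and FGFR3 from 1.38 in SKMES1 to 8.14 in NCIH520. The large rises of IGF1R in EBC1 and of FGFR3 in SKMES1 and SW900 thus concerned lines with low levels of each. FGFR2 stood at 4.78 in NCIH226 and 1.85 in NCIH1563.

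**Figure D4:**
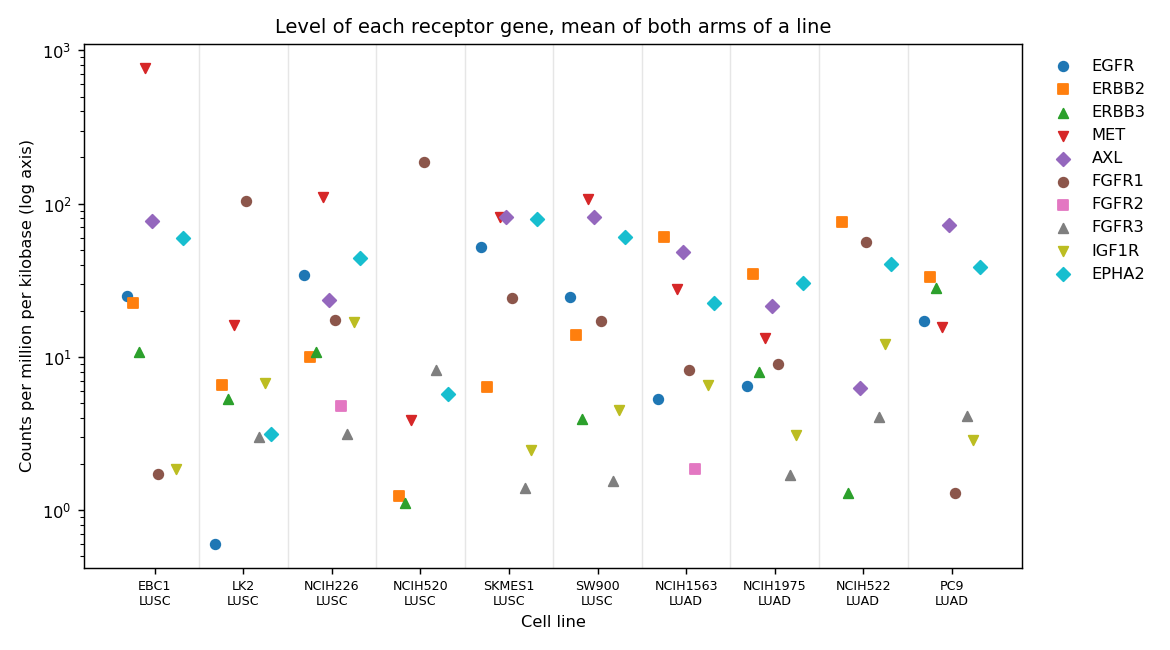
Level of each receptor gene (vertical log axis, CPM per kilobase) in each cell line, averaged by the authors over DMSO and GSK3368712 libraries. MET in EBC1 is highest at 770, and FGFR1 in NCIH520 follows at 187.

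Genes around the receptors were taken from fixed lists and counted in the limma test across 10 lines, where 887 of all genes (9.5%) were higher and 1134 (12.1%) lower, with a median of 0.004. Over all genes 34.6% had an unadjusted p under 0.05 and 40.2% passed the meta-analysis. Among 48 other receptor tyrosine kinases, 6 were listed in every line, 2 rose and 0 fell (median 0.158). They were the collagen receptor DDR1, at 0.28 ± 0.29, and the Wnt co-receptor PTK7, at 0.48 ± 0.59 (SD, n = 10, limma adjusted p = 0.0418 and 0.0477). Neither passed in the fit with missing lines allowed (limma adjusted p = 0.0552 and 0.0651). That fit held 19 of the 48, of which 0 rose and 1 fell, against 9.31% and 10.2% of its 13641 genes. The fall was in MST1R, the paralog of MET and receptor for macrophage-stimulating protein, at −1.003 ± 0.37 (n = 6, limma adjusted p = 0.00277). In the authors' deposited table MST1R ran from −1.34 in EBC1 to −0.48 in PC9. It was called lower in 5 of 6 lines, where 13.8% of all pairs of gene and line were called lower.

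Of 27 ligands, 5 were listed in every line, 1 rose and 0 fell (median 0.027): EFNA3, an ephrin-A ligand, at 0.39 ± 0.33 (n = 10, limma adjusted p = 0.0123). With missing lines allowed, 2 of 13 ligands rose and 1 fell, where 9.31% of 13641 genes rose and 10.2% fell. EFNA2, another ephrin-A ligand, stood at 0.90 ± 0.29 (n = 6) and FGF2, a ligand of the FGF receptors, at −0.51 ± 0.35 (n = 7), with limma adjusted p = 0.00226 and 0.0222. Within single lines, by the authors' adjusted p, EFNA2 was called in 0 of 6, FGF2 lower in 3 of 7 and EFNA3 higher in 2 of 10. Over all pairs of gene and line, 13.7% were called higher and 13.8% lower.

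Of 22 genes of negative regulation and receptor traffic, 19 were listed in every line, and 4 rose and 0 fell (median 0.088). These are 21.1%, against 21.6% of all genes. There were 7 of the 19 at an unadjusted p under 0.05, and by the meta-analysis 5 were higher and 1 lower. ERRFI1, a feedback inhibitor of EGFR, rose by 0.40 ± 0.27, and the kinase TNK2 by 0.28 ± 0.25 (SD, n = 10, limma adjusted p = 0.00548 and 0.0251), each positive in 9 of 10 lines. NEDD4, a ubiquitin ligase, stood at 0.37 ± 0.40 and PTPRJ, a receptor tyrosine phosphatase, at 0.33 ± 0.38 (limma adjusted p = 0.0370 and 0.0493). The last 2 did not pass with missing lines allowed (limma adjusted p = 0.0506 and 0.0657). Of the 13 listed adaptors and proximal effectors, such as GRB2 and SHC1, 0 passed limma, with 1 at an unadjusted p under 0.05 and 2 by the meta-analysis, 1 in each direction (median 0.001). Of the 10 listed co-receptors and shedding enzymes, 0 passed limma, with 3 at an unadjusted p under 0.05 (median 0.165). By the meta-analysis 3 were higher and 0 lower. Counted in either direction, these shares are no larger than those of all genes. By direction, the meta-analysis called 1698 of the 9339 genes higher and 2053 lower.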

How the data were processed

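RNA was sequenced in 40 libraries, and the only file used was the authors' deposited table of comparisons of GSK3368712 with DMSO, 1 per line. Per the labels, the libraries were made with a stranded mRNA kit and read as 151-base pairs, and genes at or under an FPKM of 1 were left out of a comparison. Per the submitters' processing notes, Salmon 0.12.0, GRCh38 and DESeq2 were used; the annotation and the DESeq2 version are not given in the sources used here. The authors' deposited fold changes and standard errors are in log2 units and the deposited statistic is a score. The authors' deposited p-values are adjusted within a line, and the deposited mean normalized counts are a signal averaged over the libraries of a line. The authors' mark matched its rule (adjusted p of 0.05 and a log2 fold change of 1 or more in size) in 135777 of 135786 entries. Direction was read from the order of names in the row labels. Separate cultures are not stated for the 2 libraries per arm, so the authors' p-values may measure technical spread only.

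Calls per line used the authors' adjusted p under 0.05. Limma 3.58.1 in R 4.3.3 tested mean log2 fold changes over lines (genes in all 10 lines, or in at least 5) and LUAD against LUSC (genes in at least 7), with Benjamini-Hochberg adjustment over all genes fitted. Cochran's Q and a random-effects meta-analysis used the authors' standard errors. On simulated data, the fit with at least 5 lines (13641 genes) found 52% of the genes given a shift of 0.5 and 90% of those given 1, and 5.33% of its calls were false. The shifted genes were drawn at random from all genes, so these shares are not specific to the receptors. Positions come from GENCODE 29, which held 99.8% of gene IDs, and promoters from RefSeq, which had entries for 8 members outside chromosome 8. The members and lists were chosen with earlier results of these data known. Named genes are all members, up to 4 genes per list with the smallest p past the 10-line test, and the 2 genes most like each member listed in all lines; the genes named from the fit with missing lines were chosen after their values were seen. Alternatives were other filters, centring, scaling, variance models, tests and transcript lengths, and leaving out each line; leaving out NCIH1975, NCIH522 and PC9 together was added after the data were seen.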

Additional observations from a re-analysis of the deposited data

Results flagged for a closer look

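Among 9 lines, the log2 fold change of MET in NCIH1563, −1.52, lay far below the others. In levels, given as CPM per kilobase, MET in EBC1 (770), ERBB3 in PC9 (27.97) and FGFR3 in NCIH520 (8.14) lay far above the other lines. These are 4 flags among 32 sets of lines examined. Chance flags about 1 in 20 sets when values are normally distributed. The levels were examined on a linear scale and spread over many-fold, so that rate may not hold for them, and no excess over chance can be read from the flags.

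The fold changes of all 9 receptors tested differed between lines beyond the authors' standard errors. Cochran's Q gave an adjusted p of 1.12e-35 for EGFR, 0.0218 for ERBB2, 1.19e-19 for ERBB3, 6.48e-13 for MET and 0.000359 for AXL. It gave 1.49e-05 for FGFR1, 2.36e-11 for FGFR3, 4.61e-08 for IGF1R and 1.72e-53 for EPHA2. Since 64.4% of all genes passed the same test, such differences were common.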

How the results depend on the processing

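Of 123 values under alternatives other than leaving out a line, 108 were classed as the same, and of 310 values without 1 line, 288 were. For a receptor's mean or subtype difference this meant the same direction and side of the threshold, and for Q the same side. Some of the values were counts of genes or entries, which have neither: 1204 against 887 was classed as the same. Where a receptor has no value in the line left out, its own value could not change. Over all genes, 561 were higher and 707 lower in the 10-line fit with the top 75% by expression (fewer genes tested), and 1698 and 2053 by the random-effects meta-analysis, against 887 and 1134. With missing lines allowed the meta-analysis gave 2438 and 2603, against 1270 and 1388. The mean of EGFR passed at −0.98 (meta-analysis), −0.87 (each line divided by its SD) and −1.38 (without NCIH1975, NCIH522 and PC9). IGF1R passed at 0.36 (meta-analysis) and 0.37 (divided by SD). ERBB2, near 0, turned to 0.06 and 0.12 under the meta-analysis and without these 3 lines. By the authors' mark, 3 receptor values were higher and 5 lower. Beyond the alternatives' own construction, the cause was not tested.

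Leaving out each line in turn gave means of −1.18 to −0.70 for EGFR, −0.057 to 0.029 for ERBB2, −0.031 to 0.19 for ERBB3, −0.259 to 0.014 for MET, −0.12 to 0.21 for EPHA2, 0.43 to 0.69 for FGFR3 and 0.28 to 0.44 for IGF1R. Q of ERBB2 was 16.3 to 21.0. The LUAD minus LUSC difference was −0.20 to 1.48 for EGFR, −0.43 to 0.17 for ERBB3, −0.30 to 0.79 for MET, −0.18 to 0.15 for IGF1R, −0.047 to 0.773 for EPHA2, 0.16 to 0.63 for FGFR3, −0.37 to −0.18 for FGFR1, −0.37 to −0.12 for ERBB2 and 0.066 to 0.317 for AXL. No paired analysis was possible because the table gives 1 comparison per line and no value per library. With 8 to 10 lines and standard errors up to 0.504, small mean changes are less often detected. In the simulation, 52% of shifts of 0.5 were found with at least 5 lines. It drew on all genes and their spread over lines, with a median SD of 0.334, against 0.536 for the 9 receptors. The share may therefore be too high for receptors with a large spread.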
